A study of Mus musculus with 10 samples.

Results

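Adipocyte genes were examined in whole mouse hearts after forced treadmill training. The set held 8 genes listed by name as markers of fat cells, namely Adipoq, Cfd, Lep, Retn, Plin1, Cidec, Cidea and Ucp1, and all 8 were found by symbol among the 56748 gene identifiers of the count tables. All hearts came from wild-type male C57BL/6 mice bought at 8 weeks of age, with no transgene or deletion. In the Exercise group, 5 mice ran for 8 weeks at 15 m/min for 120 min a day on 5 days a week after a week of acclimatization, while the 5 age-matched Control mice stayed sedentary. RNA came from the homogenized whole heart, with both atria and both ventricles, and the study describes leaving out pericardial tissue during dissection. Each heart gave 1 stranded library, of 29461697 to 39431030 counts, and values are given per heart as CPM, counts scaled to the library total after a correction for library composition. Heart numbers are the mouse numbers of the labels.

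Adipocytes store triglyceride in a lipid droplet and release it as fatty acids when energy is needed. White adipocytes hold 1 large droplet and secrete hormones, whereas brown adipocytes hold many small droplets and many mitochondria, in which uncoupling protein turns the energy of the proton gradient into heat. Fat lies close to the heart in the epicardial and pericardial depots and around the great vessels, while cardiomyocytes, which burn fatty acids, use some of the same droplet and lipase genes themselves.

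The samples were hearts by their markers. The 6 cardiomyocyte genes summed to between 50300 and 60900 CPM per heart, with Myh6 the highest in CPM, and the 3 lung genes reached at most 0.0292 CPM. The 8 adipocyte genes together summed to 61.8, 39.3, 102, 205 and 106 CPM in Exercise hearts 1 to 5 and to 158, 40.3, 39, 70.3 and 64.5 CPM in Control hearts 1 to 5. Their summed level was thus far below that of the cardiomyocyte genes in every heart. Fewer fat cells and less RNA per fat cell cannot be told apart in whole hearts.

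The 250 bases before the transcript start were read from GRCm39 for Adipoq, Cfd, Lep, Plin1, Retn and Ucp1. Shown are Adipoq, Plin1, whose RNA followed that of Adipoq most closely over the hearts, and Lep, the only one of these 6 promoters with a match to the C/EBP motif. The sequences run 5′ to 3′ on the strand of the gene and cover chr16:22965036-22965285 (plus strand) for Adipoq, chr7:79382719-79382968 (minus strand) for Plin1 and chr6:29059966-29060215 (plus strand) for Lep. Capitals mark matches to CCAAT or, in Lep, to TTNNGCAA, on either strand.
Adipoq: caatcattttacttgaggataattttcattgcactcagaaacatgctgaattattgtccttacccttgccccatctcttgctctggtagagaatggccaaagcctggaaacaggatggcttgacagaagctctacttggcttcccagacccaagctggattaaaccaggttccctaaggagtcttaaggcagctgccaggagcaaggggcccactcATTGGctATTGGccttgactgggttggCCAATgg
Plin1: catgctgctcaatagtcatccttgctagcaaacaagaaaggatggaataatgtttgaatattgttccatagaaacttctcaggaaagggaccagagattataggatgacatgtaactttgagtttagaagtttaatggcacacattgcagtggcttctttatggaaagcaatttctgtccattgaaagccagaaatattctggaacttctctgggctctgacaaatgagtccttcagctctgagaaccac
Lep: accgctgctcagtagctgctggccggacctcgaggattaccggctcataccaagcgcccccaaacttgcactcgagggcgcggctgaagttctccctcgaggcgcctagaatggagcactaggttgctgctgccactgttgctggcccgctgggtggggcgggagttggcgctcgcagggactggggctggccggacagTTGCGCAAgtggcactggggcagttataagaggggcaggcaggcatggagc
The C/EBP motif TTNNGCAA, named for a factor family of fat cell differentiation, was held by 8.07% of 13562 promoters of the same length. CCAAT, a common box that was added to the search after the sequences had been seen, was held by 35.6% of them, with 3 matches in Adipoq. The Lep match lies 51 to 44 bases before the start, and its letters read the same on both strands. Neither TATAAA, held by 7.38% of promoters, nor the direct repeat of nuclear receptors (AGGNCA repeated after 1 spacer base), held by 0.236%, was present in any of the 6 windows, which says only that these letters are not there. A match is a description of the letters, not a bound site.

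Training and sedentary hearts were compared first. Of the 8 genes, 7 passed the filter on low counts, and Ucp1 did not. All 7 had a log2 fold change above 0 and their median was 0.645, against 3e-04 over the 15454 genes tested, of which 7738 were above 0 and 7716 below. None of the 7 passed a false discovery rate (FDR) below 0.1 in edgeR's quasi-likelihood test, where 7.01% of all tested genes did, 2.75% as higher and 4.26% as lower in Exercise. By unadjusted p under 0.05 edgeR gave 0 of the 7 and DESeq2's Wald test 1, and the share of all genes at that p is not given here. DESeq2 called 0 of the 7, where it called 1473 of 15454 genes. The groups overlapped for each of the 7, while 5.05% of tested genes had groups that did not overlap. The genes are read together in the same hearts, so their common sign is not 7 separate observations. The p-values measure the spread between these hearts, each from another mouse.

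**Figure D1:**
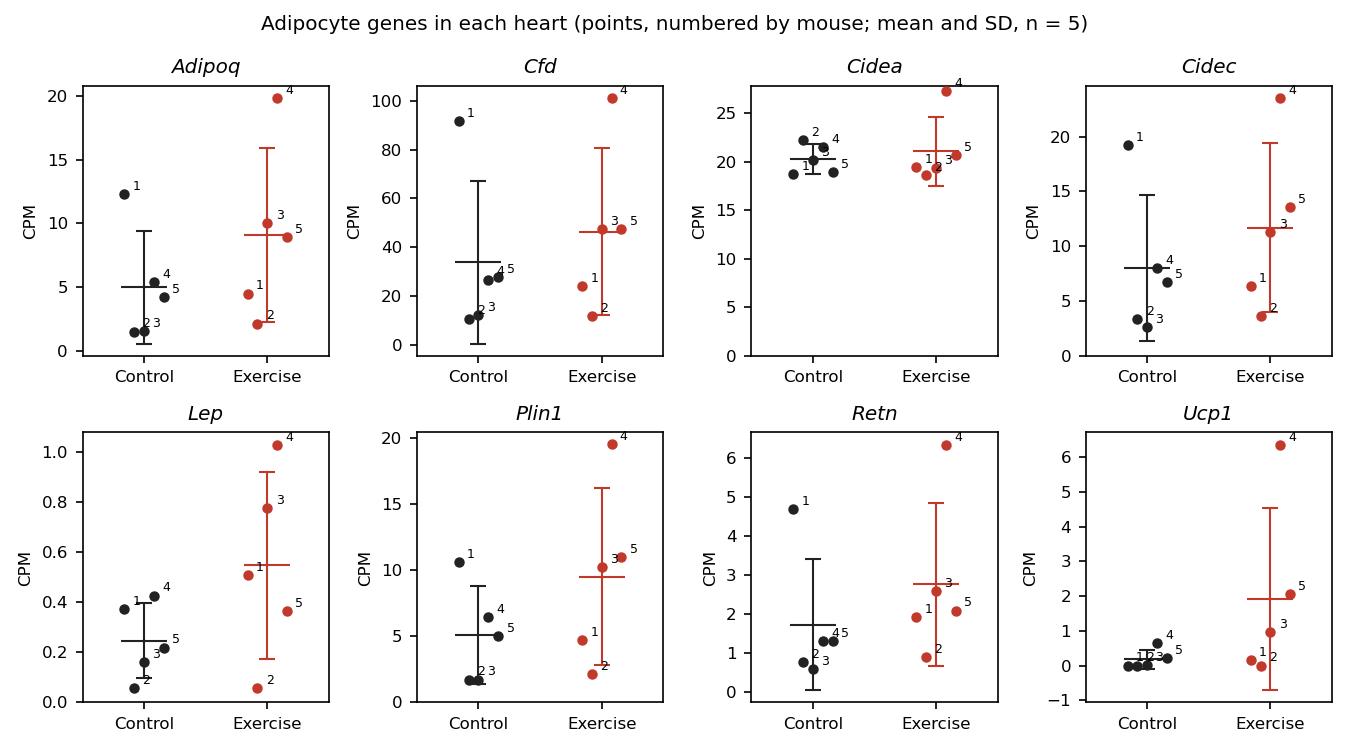
Level of each adipocyte gene (y axis, CPM, linear scale) in the Control and Exercise hearts (x axis). Points are hearts numbered by mouse, and the horizontal line and bars are the mean and SD of 5 hearts. Exercise heart 4 and Control heart 1 stand above the others for Adipoq, Cfd, Cidec and Retn, whereas Cidea stays between 18.6 and 27.3 CPM in every heart.

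The secreted factors came first among the roles. Adipoq (ENSMUSG00000022878, chr16:22964106-22976810, plus strand), which encodes the hormone adiponectin, was at 4.5, 2.15, 10, 19.8 and 8.95 CPM in Exercise hearts 1 to 5. In Control hearts 1 to 5 it was at 12.3, 1.52, 1.54, 5.4 and 4.24 CPM. Exercise heart 4 and Control heart 1 were the highest of their groups, Control hearts 2 and 3 the lowest, and the groups overlapped. The means were 9.08 ± 6.80 and 5.01 ± 4.43 CPM (SD, n = 5), and the log2 fold change was 0.84 with a standard error of 0.57 (edgeR's quasi-likelihood test, Benjamini-Hochberg adjusted p = 0.45). It was 0.34 without Exercise heart 4 and 1.51 without Control heart 1 (edgeR, adjusted p = 0.811 and 0.123). From the lowest heart to the highest Adipoq spanned 13.1-fold, far more than the difference between the groups.

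Cfd (ENSMUSG00000061780, chr10:79726668-79728496, plus strand) encodes adipsin, the complement factor D that fat cells secrete. It was at 24.2, 11.9, 47.3, 101 and 47.5 CPM in the Exercise hearts and at 91.8, 10.7, 12.1, 26.7 and 27.8 CPM in the Control hearts. Here Control heart 1 came close to Exercise heart 4 while the other Control hearts reached at most 27.8 CPM, and the groups overlapped over nearly their whole range. The log2 fold change was 0.45 with a standard error of 0.58 (edgeR, adjusted p = 0.721). Without Exercise heart 4 it was −0.06, and without Control heart 1 it was 1.26 (edgeR, adjusted p = 0.149).

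Retn (ENSMUSG00000012705, chr8:3705324-3710689, plus strand), which encodes the hormone resistin, was at 1.92, 0.887, 2.59, 6.35 and 2.09 CPM in the Exercise hearts and at 4.69, 0.759, 0.585, 1.31 and 1.31 CPM in the Control hearts. The same hearts were highest in each group. Its log2 fold change was 0.65 with a standard error of 0.55 (edgeR, adjusted p = 0.562). Without Control heart 1 the value was 1.47 and Retn passed the threshold (edgeR, adjusted p = 0.0867), whereas without Exercise heart 4 it was 0.09 (edgeR, adjusted p = 0.948).

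Lep (ENSMUSG00000059201, chr6:29060216-29073877, plus strand), which encodes the satiety hormone leptin, was near the limit of detection, with 18, 2, 29, 33 and 11 counts in the Exercise hearts and 15, 2, 6, 15 and 8 counts in the Control hearts. These were 0.509, 0.0572, 0.776, 1.03 and 0.365 CPM against 0.372, 0.0584, 0.16, 0.427 and 0.219 CPM. A floor of 3 counts is 0.0745 to 0.0994 CPM here, and Exercise heart 2 and Control heart 2 lay under it. Its log2 fold change of 1.12 was the highest of the 7 with all hearts in the fit (standard error 0.54, edgeR, adjusted p = 0.266). Lep, at 1.33, was below Adipoq (1.51), Retn (1.47) and Plin1 (1.35) without Control heart 1. Without Exercise heart 2 the log2 fold change of Lep was 1.42 and passed the threshold (edgeR, adjusted p = 0.0819).

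The droplet proteins showed both behaviours. Plin1 (ENSMUSG00000030546, chr7:79369966-79382718, minus strand) encodes perilipin 1, which coats the droplet of fat cells and guards it from lipases. It was at 4.7, 2.12, 10.2, 19.5 and 11 CPM in the Exercise hearts and at 10.6, 1.72, 1.73, 6.43 and 5.01 CPM in the Control hearts. The order of the hearts was nearly that of Adipoq and the groups overlapped. The log2 fold change was 0.88 with a standard error of 0.53 (edgeR, adjusted p = 0.388), or 0.45 without Exercise heart 4 and 1.35 without Control heart 1 (adjusted p = 0.719 and 0.163).

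Cidec (ENSMUSG00000030278, chr6:113400691-113412721, minus strand), whose product helps small droplets fuse into a large one, was at 6.34, 3.63, 11.3, 23.5 and 13.6 CPM in the Exercise hearts and at 19.2, 3.39, 2.66, 7.99 and 6.76 CPM in the Control hearts. Exercise heart 4 and Control heart 1 were again highest. The log2 fold change was 0.53 with a standard error of 0.51 (edgeR, adjusted p = 0.62), or 0.10 without Exercise heart 4 and 1.16 without Control heart 1 (adjusted p = 0.941 and 0.156).

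Cidea (ENSMUSG00000024526, chr18:67476317-67501224, plus strand), a relative of Cidec known as a droplet protein of brown fat, varied much less from heart to heart. It was at 19.4, 18.6, 19.3, 27.3 and 20.7 CPM in the Exercise hearts and at 18.7, 22.2, 20.2, 21.5 and 18.9 CPM in the Control hearts. Only Exercise heart 4 lay apart, and the range from the lowest heart to the highest was 1.47-fold, against 8.84-fold for Cidec. The means were 21.1 ± 3.56 and 20.3 ± 1.55 CPM (SD, n = 5) and the log2 fold change was 0.05 with a standard error of 0.10 (edgeR, adjusted p = 0.811). Without Exercise heart 4 it was −0.06.

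Ucp1 (ENSMUSG00000031710, chr8:84016647-84025085, plus strand) encodes the uncoupling protein that makes brown fat produce heat. It had 6, 0, 36, 204 and 62 counts in the Exercise hearts and 0, 0, 1, 23 and 8 counts in the Control hearts, or 0.17, 0, 0.963, 6.35 and 2.06 CPM against 0, 0, 0.0266, 0.654 and 0.219 CPM. Exercise hearts 3, 4 and 5 were above all Control hearts, while Exercise heart 2 had none and the groups overlapped. Control heart 1, second of all hearts for Adipoq, Cfd, Cidec and Retn, had 0 counts of Ucp1, which allows up to 0.0745 CPM.

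The means of Ucp1 were 1.91 ± 2.61 and 0.180 ± 0.280 CPM (SD, n = 5). The mean log2 CPM was higher by 2.35 in Exercise, with p = 0.151 by exact permutation of the group labels (two-sided, 252 assignments), where the smallest p possible is 0.00794. With no filter edgeR put the log2 fold change at 3.38, with a standard error of 0.827 and a Benjamini-Hochberg adjusted p of 0.0242. In the 6 fits without 1 heart in which Ucp1 passed the filter, 2 called it, with adjusted p from 0.0537 to 0.214 in edgeR. Without Exercise heart 3, 4 or 5 or Control heart 4, the hearts with most Ucp1 counts, it failed the filter and was not tested. The range of p thus covers no fit without a heart that held most of its counts. Whether Ucp1 was called therefore depended on the filter and on single hearts.

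The deposited TPM values, transcript abundances scaled by gene length, allow levels to be set in order between genes. By the median TPM over 10 hearts the order was Cfd at 32.9, Cidea at 19.4, Cidec at 4.68, Adipoq at 4.13, Plin1 at 2.52, Retn at 2, Lep at 0.13 and Ucp1 at 0.125. Cfd was above Cidea in 7 of 10 hearts, and Plin1 above Retn and Lep above Ucp1 in 5 of 10 each, so those neighbours were not separated. The median TPM of Ucp1 was above that of Lep in Exercise (0.68 against 0.16) and below it in Control (0.02 against 0.09). Cidea was above Cidec in all 10 hearts, Cidec above Adipoq in 9, and Adipoq above Plin1 and Retn above Lep in all 10. In TPM Cfd spanned 13.1 to 134 over the hearts and Cidea 16.8 to 27.2, so Cidea was at the level of the abundant adipokine in hearts with little Adipoq and well under it in hearts with much.

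Covariation with Adipoq was then measured over the 10 hearts on log2 CPM, as 7 relations. Pearson's r was 0.99 for Plin1, 0.99 for Cidec, 0.98 for Cfd and 0.96 for Retn, each with a permutation p of 2e-05 and an adjusted p of 3.5e-05. Spearman's rho was 0.95 for Plin1, 0.96 for Cidec, 0.94 for Cfd and 0.95 for Retn, with permutation p of 9e-05, 4e-05, 0.00029 and 0.00018. These 4 genes were high in the hearts where Adipoq was high and low where it was low, in both groups. With each group's mean subtracted, r was 0.99 for Plin1, Cidec and Cfd and 0.95 for Retn. Without Exercise heart 4 and Control heart 2, the hearts farthest from the median of Adipoq, it was 0.99, 0.99, 0.97 and 0.94. A single group of 5 hearts is too few for a value of its own, and all genes of a heart share its library and dissection.

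Lep followed with more scatter, at r = 0.87 (permutation p = 0.00142, adjusted p = 0.00199) and rho = 0.82 (permutation p = 0.00571). Its r was 0.76 without the same 2 hearts (permutation p = 0.0285). Ucp1 had r = 0.72 (permutation p = 0.021, adjusted p = 0.0245) but rho = 0.63 (permutation p = 0.0569), and without those 2 hearts r was 0.49 (permutation p = 0.212). The relation thus depended on the hearts included: without Control heart 1 alone r was 0.97 (permutation p = 7.72e-05), and without Exercise heart 4 alone it was 0.58 (permutation p = 0.102). Cidea had r = 0.32 (permutation p = 0.385, adjusted p = 0.385), rho = 0.07 (permutation p = 0.865) and, without the 2 hearts, r = −0.01 (permutation p = 0.99).

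**Figure D2:**
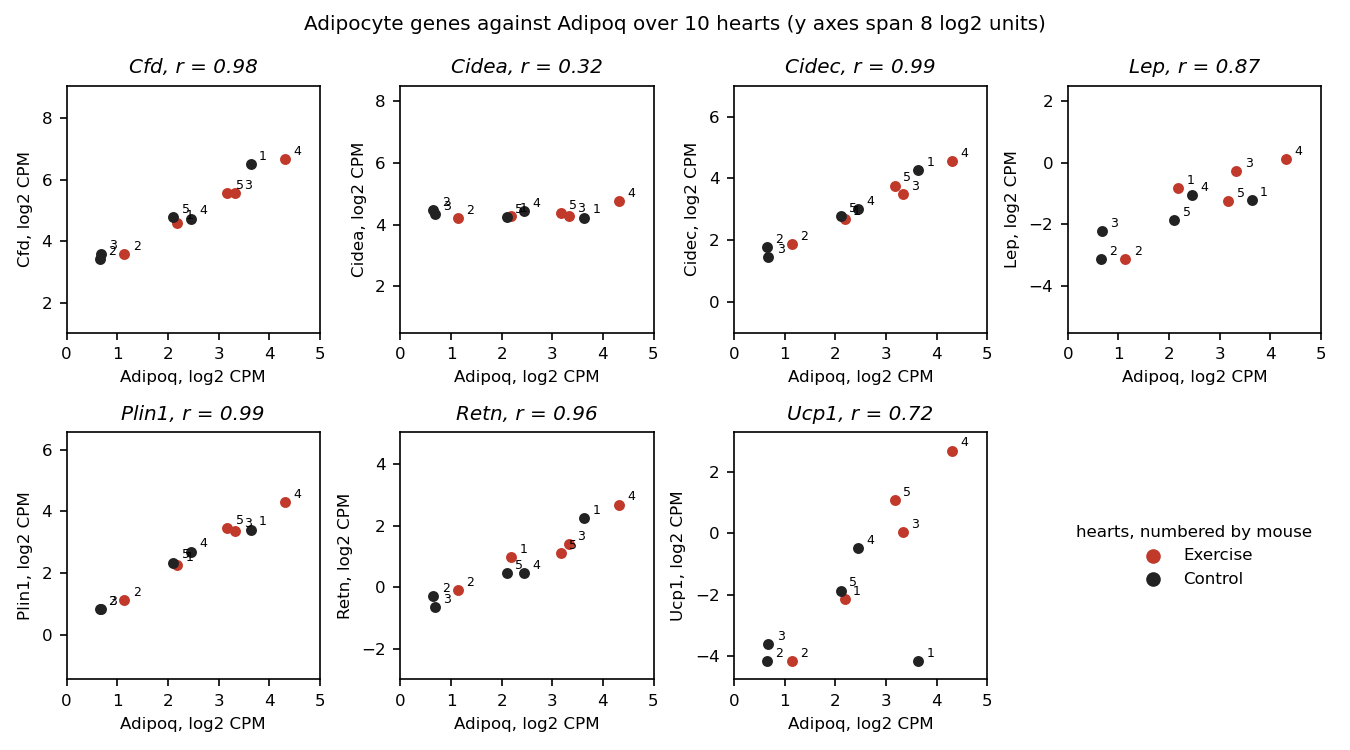
Level of each of 7 adipocyte genes (y axis, log2 CPM, 8 log2 units in every panel) against that of Adipoq (x axis, log2 CPM) over the 10 hearts, numbered by mouse. Plin1, Cidec, Cfd and Retn lie along a rising line in both groups, Cidea is flat, and Control heart 1 lies far below the other hearts of high Adipoq for Ucp1.

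**Figure D3:**
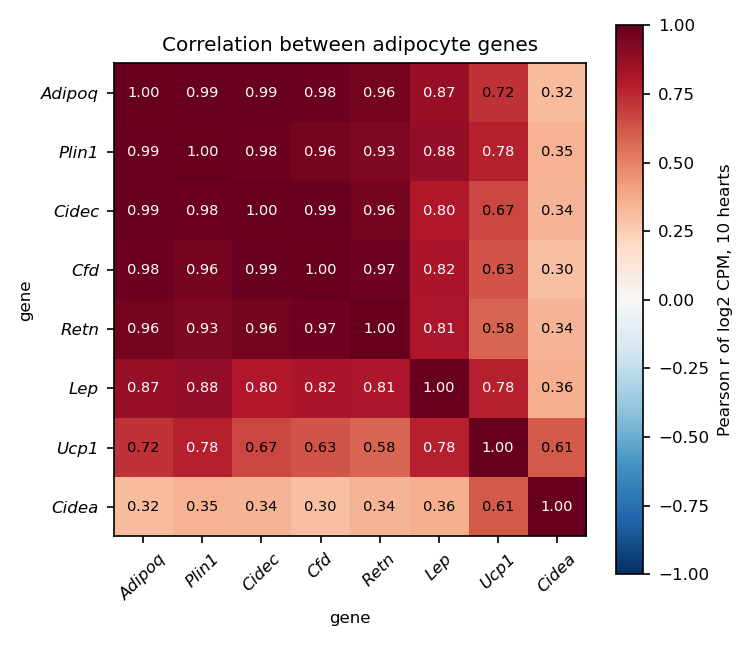
Pearson's r of log2 CPM over 10 hearts for each pair of adipocyte genes (both axes), by colour and number. Adipoq, Plin1, Cidec, Cfd and Retn form a block at 0.93 or above, and Cidea has no r above 0.36 except 0.61 with Ucp1.

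Ratios of counts to Adipoq showed the same division. Plin1 had 85.7 to 123 counts per 100 Adipoq counts in the 10 hearts, a range of 1.44-fold, Cfd 472 to 784 (1.66-fold), Cidec 113 to 223 (1.98-fold) and Retn 23.3 to 50 (2.14-fold). Cidea had 138 per 100 Adipoq counts in Exercise heart 4 and 1470 in Control heart 2, a range of 10.6-fold. Lep, of few counts, lay between, at 2.67 to 11.3 per 100 Adipoq counts (4.25-fold). The ratios of the first 4 genes thus spanned far less than Adipoq itself, at 13.1-fold. The Cfd ratio was 538, 553, 472, 511 and 531 in the Exercise hearts and 744, 702, 784, 494 and 655 in the Control hearts. Control hearts 1, 2, 3 and 5 were thus above every Exercise heart for it, a difference seen in the values and not tested. Ucp1 had 3.77, 0, 9.63, 32 and 23 counts per 100 Adipoq counts in the Exercise hearts and 0, 0, 1.72, 12.1 and 5.16 in the Control hearts. Exercise heart 4 and Control heart 1, the hearts of most Adipoq, stood at opposite ends of this ratio.

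Among 13116 tested genes whose mean reached 1 CPM, the 10 most like Adipoq by Pearson's r over 10 hearts were Plin1, Car3, Cidec, Lgals12, Cfd, Cdo1, Slc1a5, Cyp2e1, Retn and Apol6, from 0.992 to 0.957. In all, 29 genes had an r above 0.9. Car3, a carbonic anhydrase abundant in fat, was at 38.2, 15.7, 72.1, 143 and 75.4 CPM in the Exercise hearts and at 72.2, 11, 10.5, 39.8 and 33.9 CPM in the Control hearts, in almost the order of Adipoq. The 10 most like Cidea were Afg2b, Mgme1, Haus4, Zfp64, Skic2, Cdkl3, Xab2, Adissp, Rgs2 and Fbxl12, from 0.863 to 0.807, and 0 genes had an r above 0.9 with Cidea. All 10 were highest in Exercise heart 4, the heart highest in Cidea, and their Spearman's rho ranged from 0.467 to 0.915. Cidea lay apart in that heart alone, so the choice by Pearson's r favours genes that peak there.

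Markers of B lymphocytes were high in the same hearts. The 3 genes Ms4a1, Cr2 and Cd79a, of B cell surface proteins, summed to 0.481, 0.429, 0.696, 3.64 and 0.63 CPM in the Exercise hearts and to 5.24, 0.438, 0.133, 0.256 and 0.356 CPM in the Control hearts, with Ms4a1 the highest in mean CPM and Cd79a in mean TPM. All 3 were highest in Control heart 1 and next in Exercise heart 4, and only Cd79a passed the filter. Of 6 thymus and T cell genes, 1 was at 0 in every heart, and their sum stayed between 0.671 and 1.54 CPM. The mesothelial list of 7 genes, with Upk3b the highest in CPM, summed to 60.1 to 113 CPM and was not highest in Exercise heart 4, which had 82.7 CPM against 106 CPM in Control heart 1. The part of tissue attached to the heart in the adipocyte values was not tested.

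Some markers of other heart tissue were called. Of 6 atrial genes, 2 were higher in Exercise, against 2.75% of all tested genes, Sln with a log2 fold change of 0.75 and Dkk3 with 0.73 (edgeR, adjusted p = 0.0316 and 0.0278), and their sum, with Nppa the highest in CPM, ranged from 5050 to 7610 CPM in Exercise and from 2790 to 6830 CPM in Control hearts. Without Exercise heart 4 and Control heart 1, a choice made after seeing the data, 5 of the 6 atrial genes were higher. In that fit 369 of 15425 tested genes were higher. Of 5 great vessel genes, Cnn1 (0.75) and Tagln (0.54) were higher (edgeR, adjusted p = 0.0829 and 0.0618), against the same 2.75%, while Myh11 (0.35), Eln (0.15) and Acta2 (−0.07) were not called. Of 5 stromal progenitor genes, Dpp4 (0.38) and Pdgfra (0.24) were higher, again against 2.75% of all genes (edgeR, adjusted p = 0.0508 and 0.0627). In the 10 fits that left out 1 heart, Sln and Dkk3 were called in 10, Dpp4 in 7, Tagln in 5, Pdgfra in 4 and Cnn1 in 3. Among the remaining lists, 1 of 6 cardiomyocyte genes and 1 of 4 endothelial genes were lower, against 4.26% of all tested genes. These were Actc1 (−0.38) and Gpihbp1 of capillary endothelium (−0.48) (edgeR, adjusted p = 0.022 and 0.0122). In the mesothelial, thymic, B cell, skeletal muscle, Schwann cell and erythroid lists edgeR called 0 genes, against 7.01% of all tested genes. Only 1 gene was tested in each of the thymic and B cell lists. At an unadjusted p under 0.05 edgeR gave 3 of 5 Schwann cell genes and 1 of 4 erythroid genes. The share of all genes at that unadjusted p is not given here. How far the differences in these lists enter the adipocyte values was not tested.

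**Figure D4:**
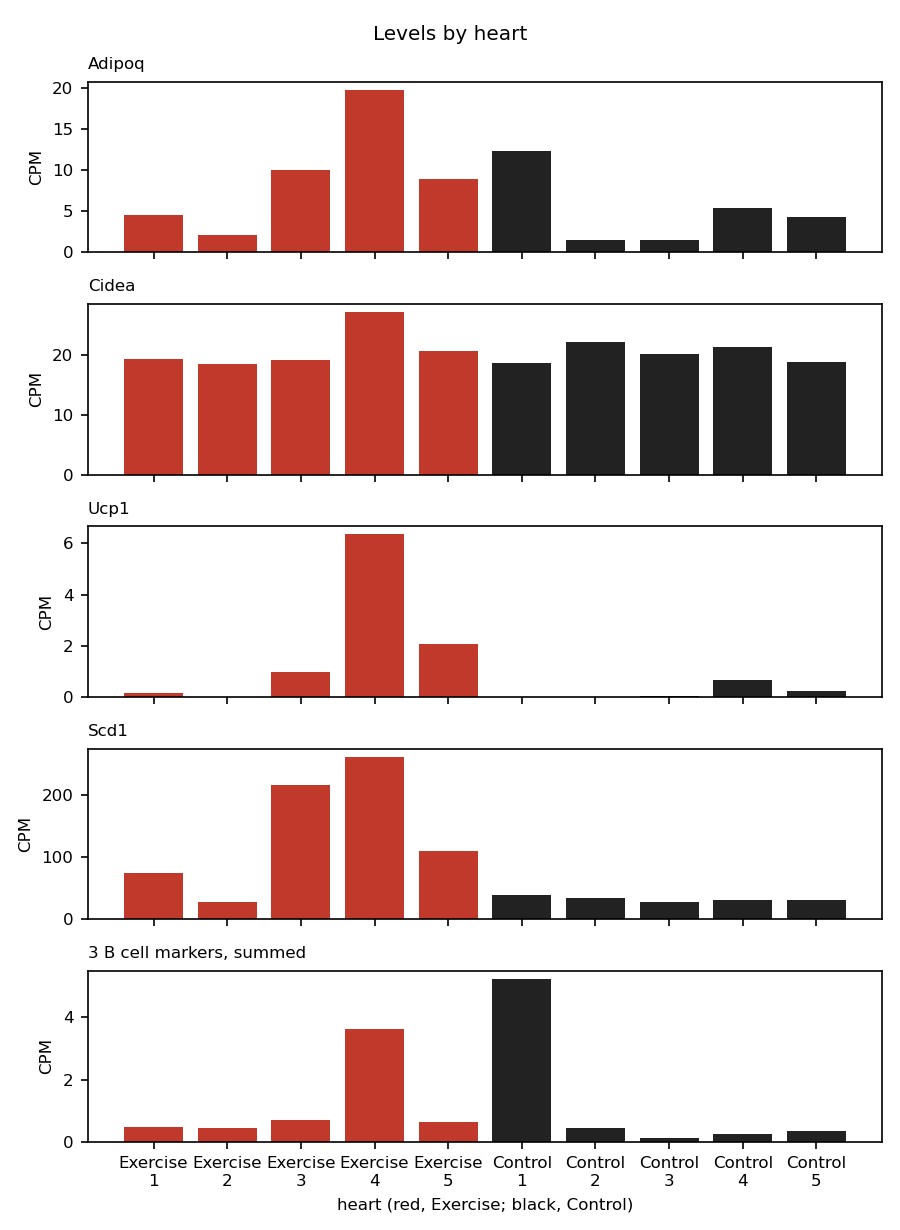
Levels (y axes, CPM, linear scale from 0) of Adipoq, Cidea, Ucp1 and Scd1 and the sum of 3 B cell markers in each heart (x axis; red, Exercise; black, Control). Adipoq and the B cell sum are high in Exercise heart 4 and Control heart 1, whereas Ucp1 and Scd1 are highest in Exercise hearts 3, 4 and 5. Control heart 1 has 0 CPM of Ucp1 and 39.3 CPM of Scd1, the highest Control heart for Scd1.

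Other genes used by adipocytes went in both directions. Of 25 genes 24 were tested, 14 with a log2 fold change above 0 and 10 below, with a median of 0.114. Of these, 3 were higher and 5 lower at an FDR below 0.1, against 2.75% and 4.26% of all genes. The higher ones were Scd1, Fasn and Acly. Without Exercise heart 4 and Control heart 1 the counts were 2 higher and 6 lower, where 369 and 518 of 15425 tested genes were.

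Scd1, the desaturase that makes monounsaturated fatty acids, was at 74.1, 28, 216, 261 and 110 CPM in the Exercise hearts and at 39.3, 33.7, 28.1, 31.5 and 31.7 CPM in the Control hearts. In 4 of 5 Exercise hearts it was above every Control heart, and Exercise heart 2 was level with the lowest of them. The log2 fold change was 2.07 with a standard error of 0.43 (edgeR, adjusted p = 0.0235), and it was called in 10 of 10 fits that left out 1 heart. The Exercise hearts had the same order for Scd1 as for Adipoq. Control heart 1 was the highest Control heart for both, but the Control hearts spanned only 28.1 to 39.3 CPM of Scd1 while Adipoq went from 1.52 to 12.3 CPM in them.

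Fasn, the fatty acid synthase, was at 66.2, 46.7, 143, 216 and 93.2 CPM in the Exercise hearts and at 57.3, 50.4, 35.9, 46.1 and 54.2 CPM in the Control hearts. The order of the Exercise hearts was that of Scd1 and of Adipoq. Its log2 fold change was 1.21 with a standard error of 0.32 (edgeR, adjusted p = 0.0541), called in 5 of 10 fits that left out 1 heart. Acly, which supplies the acetyl-CoA, had a log2 fold change of 0.30 with a standard error of 0.09 (edgeR, adjusted p = 0.0861), called in 4 of those 10.

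The 5 lower genes have various roles. Fabp4, a fatty acid binding protein of fat cells and capillaries, was at 416, 375, 357, 420 and 406 CPM in the Exercise hearts and at 495, 482, 439, 459 and 454 CPM in the Control hearts. The groups did not overlap, and the hearts of most Adipoq were the highest of each. The log2 fold change was −0.24 with a standard error of 0.05 (edgeR, adjusted p = 0.0305). The water and glycerol channel gene Aqp7 (−0.34), the regulator Pparg (−0.29), the glycerol phosphate dehydrogenase gene Gpd1 (−0.26) and the triglyceride lipase gene Pnpla2 (−0.18) were also lower, with edgeR's adjusted p of 0.0392, 0.0535, 0.0955 and 0.0511. Fabp4 and Aqp7 were called in 10 of 10 fits that left out 1 heart, Pnpla2 in 7, Pparg in 6 and Gpd1 in 1. Lpl, the lipoprotein lipase and the highest of the list in CPM, at 5230 against 5846, had a log2 fold change of −0.16 and was not called (edgeR, adjusted p = 0.126).

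**Figure D5:**
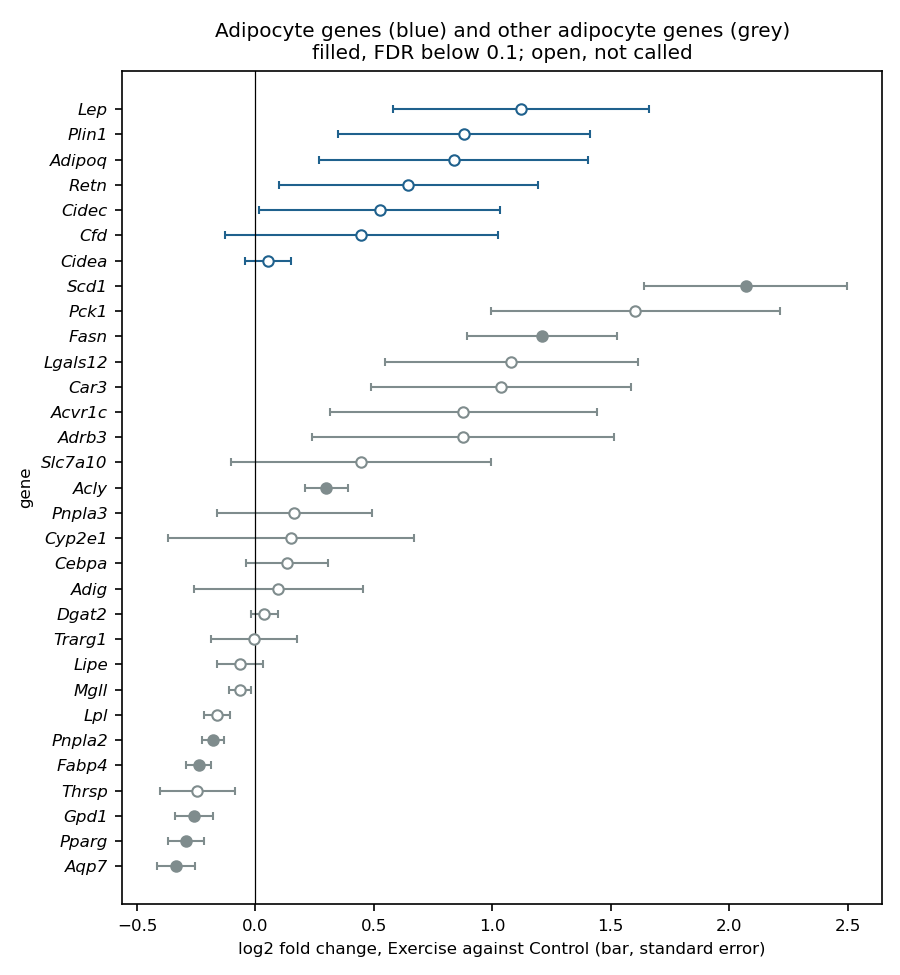
Log2 fold change of Exercise against Control (x axis, with standard error) for the 7 tested adipocyte genes (blue) and 24 other genes used by adipocytes (grey; y axis). Filled points pass an FDR below 0.1: Scd1, Fasn and Acly above 0, and Aqp7, Pparg, Gpd1, Fabp4 and Pnpla2 below 0. None of the blue points is filled, and their bars are wide apart from that of Cidea.

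The perilipins and other relatives of the 8 genes are expressed outside fat. Of 10, 8 were tested, all with a log2 fold change below 0 (median −0.162), and 3 were lower, against 4.26% of all genes. These were Plin3 (−0.17), Plin4 (−0.23) and Plin5 (−0.47), with edgeR's adjusted p of 0.0653, 0.0566 and 0.00871, called in 5, 7 and 10 of the 10 fits that left out 1 heart. Plin5, the perilipin of oxidative muscle, was at 132, 114, 102, 116 and 134 CPM in the Exercise hearts and at 165, 174, 163, 174 and 152 CPM in the Control hearts. The groups did not overlap, whereas those of Plin1 did, and Exercise heart 4 was in the middle of its group for Plin5. Without Exercise heart 4 and Control heart 1 the count was 2, as Plin3 was not called (edgeR, adjusted p = 0.168). In that fit 518 of 15425 tested genes were lower.

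The tested genes of brown fat other than Ucp1 gave no single direction. Among them Cox7a1 and Cox8b, at means of 1090 and 903 TPM, were far above Ucp1 at 0.718 TPM. How much of their RNA came from brown fat was not tested. The 7 genes that failed the filter had means of at most 0.177 CPM. Of 20 genes 13 were tested, 4 above 0 and 9 below (median −0.177), with 0 higher and 3 lower, against 2.75% and 4.26% of all genes. The counts were 0 and 2 without Exercise heart 4 and Control heart 1, where 369 and 518 of 15425 tested genes were higher and lower. The lower ones were the cytochrome oxidase subunit gene Cox8b (−0.37), the thioesterase gene Acot11 (−0.29) and the fatty acid receptor gene Ppara (−0.27), with edgeR's adjusted p of 0.0793, 0.0231 and 0.0611, and they were called in 2, 10 and 6 of the 10 fits that left out 1 heart. Those with the highest mean CPM, a scale not corrected for gene length, were Ppargc1a (−0.29), Kcnk3 (−0.09) and Cox7a1 (−0.32), not called at edgeR's adjusted p of 0.357, 0.203 and 0.155. Otop1, a proton channel gene known from brown fat, failed the filter and was singled out after its values were seen. It had 6, 3, 13, 19 and 14 counts in the Exercise hearts and 2, 1, 0, 1 and 0 in the Control hearts. Its groups did not overlap, while the highest Exercise heart was at 0.591 CPM. The gap lay between 3 counts in Exercise heart 2, the floor used here, and 2 counts in Control heart 1. Of tested genes 5.05% had groups that did not overlap, and no share was computed for genes that failed the filter.

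Receptors and partners of the adipokines gave no call in edgeR. Of 10 genes 9 were tested, 7 above 0 and 2 below (median 0.019), and edgeR called 0, against 7.01% of all tested genes. DESeq2 called 1, where it called 1473 of 15454 genes in all. In edgeR 2 had an unadjusted p under 0.05, for which the share of all genes is not given here. The 2 were the adiponectin receptor gene Adipor2, at 113.4 ± 2.14 and 123.9 ± 6.66 CPM (SD, n = 5), and the adrenergic receptor gene Adrb1, at 23.8 ± 2.66 and 21.1 ± 0.369 CPM. The groups of Adipor2 did not overlap but nearly touched, with Exercise heart 2 and Control heart 5 both at 116 CPM after rounding. The log2 fold changes of Adipor2 and Adrb1 were −0.13 and 0.17 (edgeR, adjusted p = 0.112 and 0.166). The other adiponectin receptor gene, Adipor1, was at 180.5 ± 2.41 and 178.1 ± 5.84 CPM (SD, n = 5), and Cdh13, which encodes the adiponectin-binding T-cadherin, at 190.3 ± 6.68 and 189.9 ± 11.8 CPM. C3, the complement component whose cleavage involves factor D, was at 442 ± 81.6 and 441 ± 101 CPM. The log2 fold changes of Adipor1, Cdh13 and C3 were 0.02, 0.00 and 0.00 with standard errors of 0.04, 0.05 and 0.14 (edgeR, adjusted p = 0.814, 0.981 and 0.991).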

How the data were processed

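RNA-seq of 10 whole mouse hearts, 5 Exercise and 5 Control by the labels, was analysed. The submitters' processing notes name STAR 2.7.10a, RSEM 1.3.3 and GRCm39. The authors deposited counts per gene and strand from STAR, of which the reverse-strand column was used because it held 94.9% to 95.6% of stranded counts. The authors also deposited RSEM expected counts, rounded here for 1 alternative, and TPM, used for levels between genes. The strand setting of RSEM is not given in the sources used here. Of 56748 identifiers 56017 were matched to symbols, and genes overlapping the 8 lay on the opposite strand only, for Adipoq, Cidea, Cidec and Retn.

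The test was edgeR 4.0.16 (R 4.3.3) with filterByExpr, TMM factors and a quasi-likelihood fit on all 15454 genes that passed, with Benjamini-Hochberg adjustment and an FDR below 0.1, the study's threshold. CPM used the same TMM factors. Correlations used log2 CPM with a prior count of 2 (Python 3.11.15, scipy 1.17.1). Over all hearts 100000 permutations were used, or every permutation where fewer existed. Where hearts were left out, every permutation was used. The alternatives were DESeq2 1.42.0, other scaling, filters and counts, the mouse number as a block, and each heart left out. The fit was also run on simulated data, and the outcome is not given here.

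The genes and the lists were chosen with earlier results of these data known, and 1 marker gene and 2 promoters are not reported here. The text names the 8 genes, every called gene of the lists, the 3 genes with the highest mean CPM of the adipocyte, brown fat, relative and receptor lists, and the 10 genes most like Adipoq and Cidea. Replicates differed by more than counting error (chi-square per degree of freedom of at least 5.67). Floors of 3 counts cover counting error only.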

Additional observations from a re-analysis of the deposited data

Results flagged for a closer look

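Of 40 sets of 5 hearts examined, 13 had 1 heart far from the other 4 by Dixon's ratio. Chance gives about 1 in 20 for separate sets of normally distributed values. The ratio was taken on CPM and count ratios without logarithm, and their distribution was not checked. The 40 sets are not separate, as they share hearts and include genes that vary together and their sum. The rate of 1 in 20 is thus no measure of how unusual 13 is. Among the adipocyte genes, Control heart 1 had 91.8 CPM of Cfd against 10.7 to 27.8 CPM in the other Control hearts and 4.69 CPM of Retn against 0.585 to 1.31 CPM. Exercise heart 4 had 27.3 CPM of Cidea against 18.6 to 20.7 CPM in the other Exercise hearts.

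The B cell markers stood apart in the same hearts. In Exercise heart 4, Ms4a1 was at 1.77 CPM (others 0.113 to 0.464), Cr2 at 0.591 CPM (0.0286 to 0.0849) and Cd79a at 1.28 CPM (0.0994 to 0.294). In Control heart 1, Ms4a1 was at 2.56 CPM (others 0.0532 to 0.137), Cr2 at 0.918 CPM (0 to 0.0821) and Cd79a at 1.76 CPM (0.0266 to 0.321). Their sum was 3.64 CPM in Exercise heart 4, against 0.429 to 0.696 CPM, and 5.24 CPM in Control heart 1, against 0.133 to 0.438 CPM.

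The ratio of Plin1 to Adipoq was steady but for single hearts. Exercise heart 5 had 123 Plin1 counts per 100 Adipoq counts, against 98.4 to 104 in the other Exercise hearts, and Control heart 1 had 85.7, against 112 to 119.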

How the results depend on the processing

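At an FDR below 0.1 edgeR called 1084 genes, 425 higher and 659 lower, and 505 at an FDR below 0.05. By library totals alone it called 1029 higher and 339 lower. Leaving out 1 heart gave 512 calls (without Exercise heart 4 or Control heart 3) to 1490 (without Control heart 1), with 540 without Exercise heart 3, 611 without Control heart 2 and 671 without Control heart 4. Of the adipocyte genes 0 were called, and 1 with no filter (Ucp1). Leaving out 1 heart gave 0 to 2: Ucp1 without Exercise heart 1, Lep and Ucp1 without Exercise heart 2, and Retn without Control heart 1. The log2 fold change of Cfd was −0.057 without Exercise heart 4 and up to 1.261 without Control heart 1. That of Cidea was −0.057 without Exercise heart 4, and −0.086 without that heart and Control heart 1, a choice made after seeing the data, and up to 0.094 with other single hearts left out. Adipoq (0.337 to 1.509), Cidec (0.104 to 1.159), Lep (0.784 to 1.416), Plin1 (0.446 to 1.346) and Retn (0.093 to 1.472) stayed above 0 in every alternative that tested them.

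Pearson's r with Adipoq stayed past its threshold in 18 alternatives, besides the removal of Exercise heart 4 and Control heart 2 (Lep 0.76, Ucp1 0.49), for Cfd (0.96 to 0.99), Cidec (0.98 to 0.99), Plin1 (0.99 to 1.0), Retn (0.94 to 0.97) and Lep (0.82 to 0.9). For Ucp1 (0.58 to 0.97) it missed it in 4, with 0.66 after the group means were subtracted, 0.68 without Exercise heart 2, 0.58 without Exercise heart 4 and 0.67 without Control heart 2. For Cidea it was −0.33 without Exercise heart 4, up to 0.51 without other single hearts, 0.59 on CPM without logarithm and −0.18 without that heart and Control heart 1. The cause was not tested.

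With the mouse number as a replicate block edgeR called 1137 genes and 1 adipocyte gene, Lep, at a log2 fold change of 1.107 (adjusted p = 0.0804). With the block the standard error of each tested adipocyte gene was smaller, at 0.308 against 0.54 for Lep and 0.466 against 0.569 for Adipoq. Hearts of the same number had residual correlations of −0.097, 0.159, 0.075, 0.024 and 0.159. No value for hearts of different numbers was computed, so these cannot decide whether hearts of the same number belong together. The labels give a mouse number and no pairing, and the hearts were not treated as paired. With 5 hearts a group and Adipoq spanning 13.1-fold, the standard errors of 0.5 to 0.6 log2 units limit what could be called among the tested genes other than Cidea, whose standard error was 0.10, and Lep and Ucp1 are further limited by few counts.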

Other observations

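Pck1, which encodes the cytosolic enzyme of glyceride synthesis in fat, was at 10.6, 3.06, 25.1, 54.4 and 26.9 CPM in the Exercise hearts and at 13.5, 2.89, 1.76, 12.1 and 8.98 CPM in the Control hearts. Its hearts were in nearly the order of Adipoq, and it was not called (log2 fold change 1.60, standard error 0.61, edgeR, adjusted p = 0.164). Cyp2e1, an oxidase gene, was highest in Control heart 1 at 65 CPM, above Exercise heart 4 at 48.8 CPM (log2 fold change 0.15, edgeR, adjusted p = 0.905). Its log2 fold change ranged from −0.16 to 0.92 over the alternatives and was 0.61 without both of these hearts. Adrb3, the adrenergic receptor of fat cells, was at 4.42 CPM in Exercise heart 4 and 2.68 CPM in Control heart 1, and between 0.175 and 1.69 CPM in the others. Slc27a2, a fatty acid transporter gene from the brown fat list, failed the filter. It was at 0.0283, 0, 0.187, 0.902 and 0.232 CPM in the Exercise hearts and at 0, 0, 0.0266, 0.0853 and 0 CPM in the Control hearts. Like Ucp1, it had 0 counts in Control heart 1. Of the 13 tested genes of that list 4 had a log2 fold change above 0 and 9 below, with 0 called higher and 3 lower. Pck1, Cyp2e1, Adrb3 and Slc27a2 were singled out after their values were seen.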
